A study of Caenorhabditis elegans with 4 samples.

Results

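The GEI-11 binding sites described here are the 253 entries on chromosome II among the 1539 entries of the combined peak list of Caenorhabditis elegans embryos. They were chosen by their chromosome alone, on genome build WS220, and are called sites in what follows. No test was made of whether GEI-11 itself binds at each of them. The animals were hermaphrodites of strain OP179, grown at 20 °C, whose integrated transgene wgIs179 carries unc-119(+) and gei-11::TY1::EGFP::3xFLAG in an unc-119(ed3) background, and was introduced by bombardment. The tagged protein is thus expressed from a transgene. The genotype names no mutation in gei-11 itself, so untagged GEI-11 may be present too. Whole embryos mix all cell types. Chromatin was precipitated with antibodies against GFP in 2 ChIP samples, and 2 input DNA samples served as the control. The labels number the replicates without saying whether they were separate cultures. The lists give no read counts, and the depth behind a peak is unknown.

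GEI-11, also named SNPC-4, is a subunit of the complex that recognises the promoters of small nuclear RNA genes and recruits RNA polymerase to them. In the worm it is also known for its association with piRNA genes, most of which lie on chromosome IV. Autosomes of this worm are divided into a central region, rich in conserved and highly expressed genes, and arms that recombine more often and hold more repeats. In the RefSeq gene table of assembly WBcel235, from which only counts per chromosome were taken, chromosome II carries 16 of 129 snRNA genes, 57 of 634 tRNA genes and 109 of 15363 piRNA genes. No site was assigned to a gene, since that assembly is not the build of the peak lists.

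The sites lay mostly towards the right end of chromosome II. The chromosome was divided into 3 equal parts of 5.09 Mb, with its end taken as the last base of any replicate peak, and each site was placed by its midpoint. The right part held 130 of 253 sites (51.4%, 95% exact interval 45.0 to 57.7%), the middle part 68 (26.9%, 21.5 to 32.8%) and the left part 55 (21.7%, 16.8 to 27.3%), against an expected 33.3% each. Over all chromosomes, 42.8% of the sites lay in the right part. The excess on the right (two-sided exact binomial test, p = 1.28e-08 with Benjamini-Hochberg adjustment over the 3 parts) and the deficit on the left (exact binomial, adjusted p = 8.84e-05) were larger than counting error. The deficit in the middle was smaller (exact binomial, adjusted p = 0.0326), and it did not pass the threshold of 0.05 in either replicate alone. These tests, and those that follow, count each site as independent. Neighbouring sites are not, so that the p-values are too small. Density was 25.5 sites per Mb on the right, 13.4 per Mb in the middle and 10.8 per Mb on the left.

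Both ChIP samples placed their strongest peaks on chromosome II in the same way. Among the 1539 highest-ranked peaks of each list, called top peaks here, 218 in replicate 1 and 257 in replicate 2 lay on II. Of these, 50.0% in replicate 1 (109, 95% exact interval 43.2 to 56.8%) and 50.2% in replicate 2 (129, 43.9 to 56.5%) were in the right part. The left part held 21.1% of them in replicate 1 and 19.8% in replicate 2. The combined list was presumably made from these replicates, so the shares are not taken as independent of it.

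The weakest peaks did not share this distribution. Among the 10000 lowest-ranked peaks of each replicate list, 1598 of replicate 1 and 1527 of replicate 2 lay on II. The right part held 548 weak peaks of replicate 1 (34.3%) and 545 weak peaks of replicate 2 (35.7%). The share of the sites in the right part exceeded that of the weak peaks by 17.1 percentage points in replicate 1 (95% interval 10.5 to 23.7, two-sided Fisher's exact p = 2.57e-07). It exceeded that of replicate 2 by 15.7 points (9.08 to 22.3, Fisher's exact p = 3.44e-06). Over all peaks of replicate 1 on II, 36.8% were in the right part and 28.9% in the left (exact binomial, adjusted p = 5.87e-07 and 1.91e-10). In replicate 2 these shares were 37.7 and 30.5% (exact binomial, adjusted p = 2.54e-09 and 8.15e-05). A smaller skew to the right was thus present over the full lists, which include the top peaks.

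**Figure D1:**
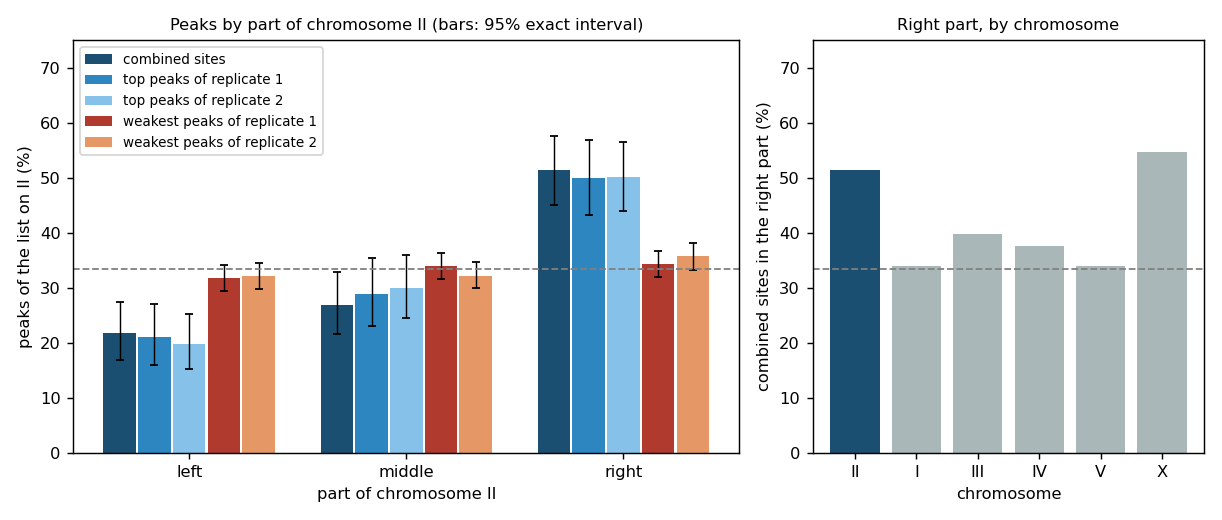
Left, the percentage of the peaks of each list on chromosome II that lay in its left, middle and right part, for the combined sites, the top peaks and the weakest peaks of each replicate, with 95% exact intervals. Right, the percentage of combined sites in the right part of each chromosome. The dashed lines mark 33.3%. The combined sites and both sets of top peaks stand at 50% or more in the right part, while the weak peaks stand at 34.3 and 35.7%.

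Chromosome II differed in this from the other autosomes. Its right part held 51.4% of its sites, against 36.3% (344 of 948) on chromosomes I, III, IV and V together, a difference of 15.1 percentage points (95% interval 8.22 to 22, two-sided Fisher's exact p = 1.81e-05). Taken singly, the right share of II was above that of I (33.9%, Fisher's exact, adjusted p = 0.000298 over 5 chromosomes), V (33.9%, adjusted p = 0.000298), IV (37.5%, adjusted p = 0.00312) and III (39.8%, adjusted p = 0.0159). Against X, where the right part held 54.7%, the difference was -3.35 percentage points and did not pass the threshold (Fisher's exact, adjusted p = 0.454).

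Of 10 equal slices of chromosome II, the last was the fullest. It held 64 sites, or 25.3% of those on the chromosome. In replicate 1 it held 24.8% of the top peaks on II, and in replicate 2 it held 23.7%. The slices before it were less full, with 32 sites in slice 9 and 31 in slice 8. Slice 7 held the fewest sites, 9 (3.56%), and the fewest top peaks of replicate 2 (3.89%). The fewest top peaks of replicate 1 lay in slice 2 (3.67%), with 5.05% in slice 7. A smaller rise stood in slice 4, with 28 sites. The weak peaks of both replicates varied between 8.51 and 11.5% over all 10 slices.

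**Figure D2:**
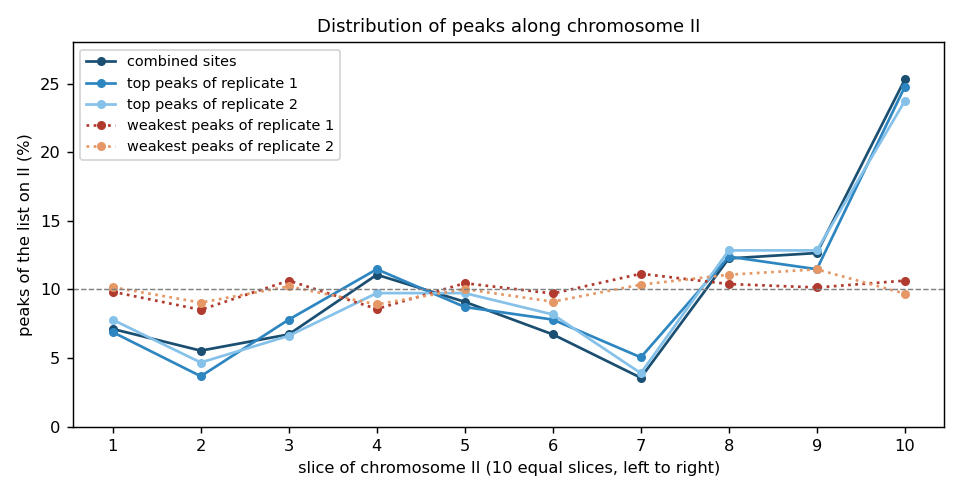
The percentage of the peaks of each list on chromosome II (y axis) in 10 equal slices of its length from left to right (x axis). Solid lines show the combined sites and the top peaks of each replicate, dotted lines the weakest peaks. The dashed line marks 10%. The solid lines stand between 23.7 and 25.3% in the last slice, where the dotted lines stand at 10.6 and 9.69%.

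In windows of 500 kb the 3 fullest adjoined one another. The window from 14.5 to 15 Mb held 21 sites, that from 13.5 to 14 Mb held 19 and that from 14 to 14.5 Mb held 18. In the same order the top peaks of replicate 1 numbered 15, 18 and 14, and those of replicate 2 numbered 20, 19 and 18. Next came the window from 5.5 to 6 Mb in the middle part, with 15 sites, and the window from 11.5 to 12 Mb, with 14. No full window lacked a site, and the emptiest, from 1.5 to 2 Mb and from 7.5 to 8 Mb, held 1 each. The window from 1.5 to 2 Mb also held few weak peaks, 28 of replicate 1 and 26 of replicate 2. The window from 7.5 to 8 Mb held 55 and 45 weak peaks.

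These windows make up a stretch of 1.5 Mb, picked once their values were known, with 58 sites on 9.82% of the span. Its density was 38.7 sites per Mb, with 14.2 per Mb over the rest of II, while weak peaks of replicate 1 stood at 111 per Mb in the stretch and 104 per Mb in the rest. For replicate 2 these values were 98 and 100.2 per Mb. The fullest stretch of this length on another autosome held 42 sites, on III. Chromosome X, with 19.1 sites per Mb over its span against 16.6 on II, was not part of this comparison. With the stretch left out of both sites and span, the right part of II still held 36.9% of the 195 sites left, where its part of the span left was 26.1% (exact binomial, adjusted p = 0.00311). With the fullest such stretch of every autosome left out, the right share was 36.9% on II and 28.5% on the others (Fisher's exact p = 0.0237).

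The 10 highest-ranked sites on II lay in its right and middle parts. First came the site at 15025626 to 15026141, which ranked 6 in the whole combined list, 6 in replicate 1 and 5 in replicate 2. The site at 5844513 to 5845123 ranked 9 in replicate 1 and 7 in replicate 2, and that at 14018185 to 14018628 ranked 12 and 9. All 3 had the highest score of each list. That score was shared by 856 combined sites, 1154 peaks of replicate 1 and 681 peaks of replicate 2. Ranks within these ties, which include the 10 sites here, follow the authors' peak number and not the score. The site at 7199918 to 7200403 ranked 11 in replicate 1 and 10 in replicate 2. That at 5543291 to 5543859 ranked 10 and 14, and that at 13834238 to 13834755 ranked 14 and 11. The remaining 4 of the 10 were at 11223859 to 11224312, 5701378 to 5701812, 14804079 to 14804917 and 12944590 to 12945171, with replicate ranks between 16 and 29. For these 10 sites the ranks in the replicates differed by a factor of 1.45 at most. The midpoints of their replicate peaks lay within 41 bp of the midpoint of the site.

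No site of the left part was among these 10. The best one there, at 5057344 to 5057703, ranked 50 in the combined list, 51 in replicate 1 and 55 in replicate 2. The 100 highest-ranked sites of the genome all had the highest score and were ordered by peak number. Of them, 22 lay on II, with 13 in the right part, 8 in the middle and 1 on the left. The left part thus had 1 of its 55 sites in the top 100, against 21 of 198 in the other parts (two-sided Fisher's exact p = 0.0545, chosen after the values were seen). II held 22% of the top 100 sites and 16.1% of the other 1439, a difference that did not pass the threshold (Fisher's exact p = 0.125).

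The authors' score, whose scale is not named in the files, ran from 1.73 to 3.24 over the sites on II. The highest value was shared by 137 of the 253 (54.2%), against 55.6% of all 1539 sites, and ties were ordered by the authors' peak number. The other 116 sites scored between 1.73 and 2.80. At the highest score stood 72 of 130 sites in the right part (55.4%), against 65 of 123 in the middle and left parts together (52.8%). The difference was 2.54 percentage points (95% interval -9.74 to 14.8, two-sided Fisher's exact p = 0.706). By part, 39 of 68 sites in the middle and 26 of 55 on the left had this score. The right part thus had more sites, and no difference in the share with the highest score was detected.

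Most sites, 197 of 253, were 400 bp wide. Widths are given for II alone, without those of the other chromosomes. The 42 narrower sites, down to 100 bp, and the 14 wider ones all had the highest score, as did 81 of the 197. The widest was at 14804079 to 14804917 (839 bp), followed by 5844513 to 5845123 (611 bp) and 12944590 to 12945171 (582 bp). Wider sites numbered 7 in the right part, 7 in the middle and 0 of 55 on the left. They include 2 intervals that the list repeats exactly, at 5543291 to 5543859 and at 14804079 to 14804917. With those counted once, the left part had 0 of 55 and the other parts 12 of 196 (two-sided Fisher's exact p = 0.0742, chosen after the values were seen).

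The presence of the sites in the single samples was compared next, with an overlap of at least 1 bp. The combined list was presumably made from these samples, so that presence in them is not taken as an independent check. In the full replicate lists of 30000 peaks, all 253 sites were found in replicate 1 and 251 in replicate 2. The 2 sites without a peak in replicate 2 were at 5661693 to 5662092, which ranked 292 in replicate 1, and at 11238935 to 11239334, which ranked 645. In the top peaks of both replicates 135 sites were found (53.4%, 95% exact interval 47.0 to 59.6%), against 58.4% of all 1539 sites. On chromosomes I, III, IV and V together the share was 58.5% (555 of 948). The difference, II minus the others, was -5.18 points (95% interval -12.1 to 1.72, two-sided Fisher's exact p = 0.152) and did not pass the threshold. Top peaks of replicate 1 overlapped 185 sites on II (73.1%, with 77.6% over the genome), and those of replicate 2 overlapped 193 (76.3%, with 77.1%). Of the 118 sites outside the top peaks of both, 108 were in the top peaks of exactly 1 replicate, a count given for II alone.

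By part of II, the top peaks of both replicates included 69 of 130 sites on the right (53.1%), 41 of 68 in the middle (60.3%) and 25 of 55 on the left (45.5%). The left share was lower than the 55.6% of the other parts together, without passing the threshold (Fisher's exact p = 0.222, chosen after the values were seen). Presence was lower at lower ranks of the combined list. On II the combined ranks, with ties ordered by peak number, had Spearman correlations of 0.80 and 0.79 with those in replicates 1 and 2. The fall is thus not independent of how the list was made. Values with tied scores at their mean rank are not given for these correlations. All 22 sites on II of ranks 1 to 100 and all 28 of ranks 101 to 300 were in the top peaks of both samples. Of ranks 301 to 600 it was 42 of 48 (87.5%), of ranks 601 to 1000 it was 33 of 63 (52.4%), and of ranks 1001 to 1539 it was 10 of 92 (10.9%). On the other autosomes these last 3 shares were 94.8%, 60.9% and 15.0%, each within the interval for II.

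**Figure D3:**
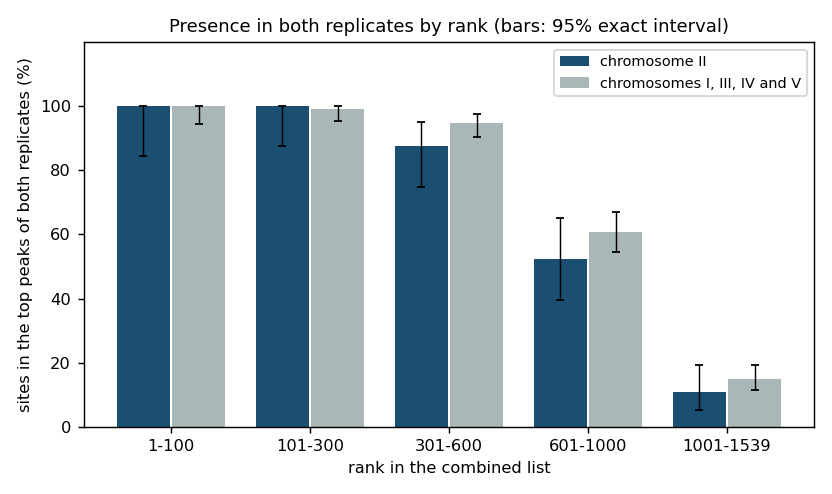
The percentage of sites overlapped by the top peaks of both replicates (y axis), by rank in the combined list (x axis), for chromosome II and for chromosomes I, III, IV and V together, with 95% exact intervals. On II the share is 100% for ranks 1 to 300 and 10.9% for ranks 1001 to 1539.

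The right part held the most sites in every range of ranks. Sites up to rank 856 share the highest score, so that the ranges up to rank 600 follow the peak number alone. It held 13 of the 22 sites on II of ranks 1 to 100, 16 of 28 of ranks 101 to 300 and 27 of 48 of ranks 301 to 600. Of ranks 601 to 1000 it held 30 of 63, and of ranks 1001 to 1539 it held 44 of 92. These shares lay between 47.6 and 59.1%. The left part held 1, 3, 9, 17 and 25 sites in the same order of ranks.

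The ranks of the sites in the replicates were then set against each other. Across the 251 sites with a peak in both full lists the ranks had a Spearman correlation of 0.46, and 0.50 over 939 sites on the other autosomes. These values are across sites of the same libraries and are given without a p. Over the 135 sites in the top peaks of both the value was 0.74, and over the other 116 it was -0.75, where the choice of sites by these ranks bears on both values. The correlation was 0.63 in the middle part (67 sites), 0.47 on the right (129) and 0.13 on the left (55). With tied scores given their mean rank, the value over the 251 sites was 0.13, so that it rests mostly on the order of the peak number within ties. The highest score of the list was held by 160 sites in replicate 1 and by 101 in replicate 2. Both counts are for II alone, without those of the other chromosomes. The full lists themselves differ in the number of such ties, 1154 for replicate 1 and 681 for replicate 2, so the counts on II are not compared.

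The ranks of a site in the replicates differed by a median factor of 1.81, and by a factor of 2 or less at 141 of 251 sites (56.2%). Both values describe II alone and are given without those of the other chromosomes. At the 5 sites with the widest differences, replicate 1 had the weaker rank at all but that at 11960628 to 11960757. The site at 3910818 to 3911217 ranked 13899 in replicate 1 and 519 in replicate 2, a factor of 26.8. The site at 11960628 to 11960757 ranked 290 in replicate 1 and 5259 in replicate 2. Ranks of 14669 and 831 were found at 9940362 to 9940761, and of 5597 and 336 at 10303679 to 10304078. The site at 14635271 to 14635376 ranked 6433 in replicate 1 and 415 in replicate 2. Of these 5 sites, 3 lay in the right part, 1 in the middle and 1 on the left, and 3 had the highest score of the combined list. Replicate peaks were centred close to the sites, with a median distance between midpoints of 15 bp in replicate 1 and 11.5 bp in replicate 2.

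**Figure D4:**
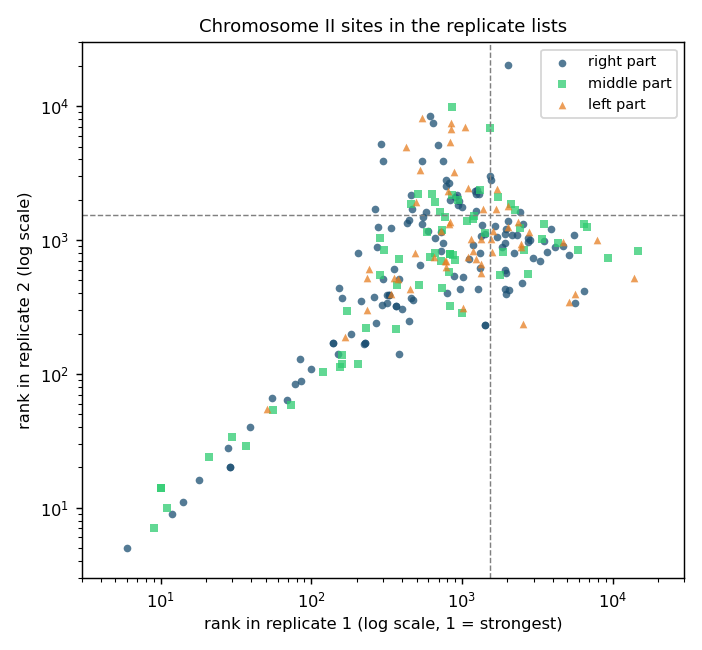
The rank of each chromosome II site in replicate 1 (x axis) and in replicate 2 (y axis), on log scales, by part of the chromosome, for the 251 sites found in both lists. The dashed lines mark rank 1539. Sites up to about rank 100 lie along the diagonal, and beyond it they spread.

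Some strong replicate peaks on II were not in the combined list. They numbered 35 of 218 top peaks in replicate 1 (16.1%) and 65 of 257 in replicate 2 (25.3%). On the other autosomes the shares were 22.0% in replicate 1 (two-sided Fisher's exact p = 0.0528) and 22.3% in replicate 2 (p = 0.315), both chosen after the values were seen. The best-ranked of them lay at 13289834 to 13290229 in replicate 1, with rank 701, and at 14906954 to 14907349 in replicate 2, with rank 656. In the opposite sample some peak lay over 23 of the 35 and 47 of the 65, and a top peak lay over 2 of each. The right part held 14 of the 35 and 30 of the 65.

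The spacing of the sites was compared next. A neighbour under 5 kb away, from midpoint to midpoint, was present for 84 of 253 sites (33.2%), against 28.7% of all 1539 sites. On chromosomes I, III, IV and V together the share was 28.2% (267 of 948), so that II stood 5.04 percentage points higher (95% interval -1.43 to 11.5, two-sided Fisher's exact p = 0.12). The difference did not pass the threshold at 5 kb. With a limit of 2 kb it did not either, at 19.0% on II and 16.6% on the others (Fisher's exact p = 0.397). It did with a limit of 10 kb, at 47.0% on II and 38.4% on the others (Fisher's exact p = 0.0141). The 84 sites formed 33 clusters, of which 22 were pairs, 7 held 3 sites, 1 held 4 and 3 held 5. Cluster sizes are given for II alone.

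Sites of the right part more often had a close neighbour. There 53 of 130 sites had a neighbour under 5 kb away (40.8%), against 31 of 123 in the middle and left parts together (25.2%). The difference was 15.6 percentage points (95% interval 4.15 to 27, two-sided Fisher's exact p = 0.011, chosen after the values were seen). Among top peaks it was 43.1% on the right and 20.2% in the other parts in replicate 1, and 46.5 and 23.4% in replicate 2. With touching entries merged it was 37.9 and 23.1% (Fisher's exact p = 0.013). The right part held 18 clusters, of which 10 had 3 or more sites, while the other parts held 15, of which 1 did (two-sided Fisher's exact p = 0.00384, chosen after the values were seen). Several of these hold entries that overlap or repeat. By separate regions, 6 of the 18 clusters on the right had 3 or more, against 0 of the 15 elsewhere (Fisher's exact p = 0.0213, not among the tests listed at the outset). The median gap between neighbours was 19.6 kb on the right, 36.0 kb in the middle and 54.4 kb on the left. A denser part has shorter gaps by its density alone, and clustering beyond that density was not tested.

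Of the 3 clusters with 5 sites, the shortest spanned 13829347 to 13836225. Its members ranked 98, 975, 13, 464 and 444 in the combined list from left to right. The highest-ranked, at 13834238 to 13834755, is the sixth site of II by rank, and the last 2 members overlap each other and share 1 peak in each replicate. Thus 4 separate regions make up this cluster, and each replicate had 4 peaks in it.

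The next, from 12494566 to 12502057, held 1 strong site with rank 164 at its left end. The other 4 ranked between 1112 and 1436, and each of them was in the top peaks of exactly 1 replicate. For example, the site at 12498378 to 12498777 ranked 642 in replicate 1 and 7541 in replicate 2, and that at 12501658 to 12502057 ranked 3688 in replicate 1 and 808 in replicate 2. In this cluster the replicates thus shared 1 strong site.

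The third, from 14794903 to 14804917, was strong throughout. Its members ranked 335, 530, 78, 23 and 42, all 5 had the highest score and all 5 were in the top peaks of both replicates. The last 2 entries are the repeated interval at 14804079 to 14804917, so that it held 4 separate regions over 10015 bp. Their midpoints lay 3.24, 3.11 and 3.12 kb apart from left to right. The single cluster with 4 sites, from 11749554 to 11759608, also spread over about 10 kb. Its inner sites ranked 207 and 797 and were in the top peaks of both replicates, while its outer sites ranked 1172 and 1484 and were not.

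Of the 7 clusters with 3 entries, the one with the shortest span, by which ties in size were ordered, ran from 14635271 to 14636286. Its entries lay within 1016 bp and formed 2 separate regions. Its left site is the one that ranked 6433 in replicate 1 and 415 in replicate 2, and the overlapping pair beside it ranked 140 in replicate 1 and 171 in replicate 2. Over all of II the 253 entries formed 245 separate regions, and they were matched to 245 different peaks in replicate 1 and 243 in replicate 2. The single cluster with 3 sites outside the right part, from 5543291 to 5544424, includes the other repeated interval.

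**Figure D5:**
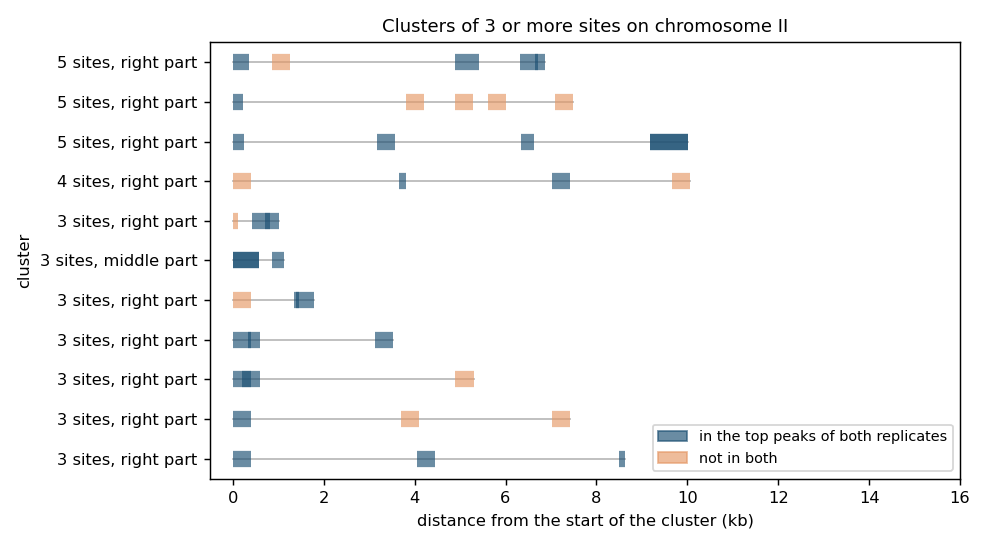
The 11 clusters of 3 or more sites on chromosome II, 1 per row, with the distance from the start of each cluster in kb (x axis). Boxes are sites drawn to width, dark where the top peaks of both replicates overlapped the site and light where they did not. Of the 11, 10 lay in the right part, 5 hold only 2 separate regions because entries overlap or repeat, and the longest spans about 10 kb.

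The longest stretches without a site lay left of the dense end. The longest gap, 500 kb between midpoints, ran from the site at 1320451 to 1320850 to that at 1820846 to 1821245. Gaps of 354 and 334 kb adjoined each other on both sides of the lone site at 7708656 to 7708794. A gap of 336 kb separated the sites at 9332964 to 9333363 and 9668918 to 9669317, and a gap of 325 kb those at 4376680 to 4377079 and 4701625 to 4702024. None of these 5 gaps lay in the right part.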

How the data were processed

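The deposited values are peak lists with the authors' score for each peak. Per the file headers, positions are on WormBase WS220, and the source field names SPP peak calling followed by IDR. IDR is a method that compares the ranks of peaks between replicates, and how it was applied to these lists is not named. On II, 135 of the 253 sites were in the top peaks of both replicates. Aligner, versions, thresholds, the use of input and the making of the combined list are not named in the labels or headers. Per the labels' protocols, embryos were fixed in 2% formaldehyde, which 100 mM Tris then quenched, chromatin was sonicated, and 10% of the lysate was kept as input. Read depth is unknown, so intervals cover counting error only.

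Ranks follow the score, and within ties the peak number. A site's replicate rank is that of the best-ranked peak overlapping it by at least 1 bp. Shares were tested with exact binomial tests and Fisher's exact tests, with Clopper-Pearson 95% intervals for shares and Wald intervals for differences. The exact binomial test of the right part was run on simulated counts, drawn from the binomial distribution that the test assumes. That run could show little beyond its own assumption, and it does not cover the dependence of neighbouring sites. The Fisher's exact tests were not simulated. The sites, comparisons and lists were chosen with earlier results of these data known. Sites are named by rule: the 10 highest-ranked, the 5 largest clusters (ties by shorter span), the 5 fullest windows and those with none, sites absent from a full replicate list, the 5 largest rank differences, the 3 widest and the 5 longest gaps. The 3 kinds of feature outside it (the best left site, the emptiest windows, the best replicate peaks not combined) were chosen after their values were seen. Alternatives were merging within 1 kb or 5 kb, highest scores, the higher-ranked sites, single replicates, other limits of overlap and gap, and another chromosome start. Analyses used Python 3.11.15 with scipy 1.17.1, pandas 2.3.3, numpy 2.4.6 and matplotlib 3.10.9.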

Additional observations from a re-analysis of the deposited data

How the results depend on the processing

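The high right share and the low left share of chromosome II kept their direction and their side of the 0.05 threshold under all alternatives run for them, at 36.9 to 55.6% on the right and 17.5 to 28.2% on the left. The 36.9 and 28.2% are without 13.5 to 15 Mb, where the expected shares were 26.1% on the right and 37.0% on the left. The right share ranged from 50.0 to 50.2% in single replicates and the left share from 19.8 to 21.1%. The low middle share of 26.9% lost its call with clusters counted once (29.2%) and at the highest score (28.5%). It did so too among the 126 higher-ranked sites (27.0%) and in single replicates (28.9 to 30.0%). Chosen after seeing the data, leaving out 13.5 to 15 Mb gave 34.9%, against an expected 37.0%, with no call. The cause was not tested. The excess over the other autosomes held except against X alone, where 51.4% lay below 54.7%, and without 13.5 to 15 Mb of II only, which lowers its share by construction (36.9 against 36.3%, Fisher's exact p = 0.87). The clustered share of 33.2% was 19.0% with gaps under 2 kb, not called. It passed the threshold with gaps under 10 kb (47.0%), without allowance for the higher density of II. Single replicates gave 31.7 to 35.0%, with the call in replicate 2 alone. Presence in both full replicate lists was 99.2% on II and 99.1% on the other autosomes, a turned direction with no call. The rank correlation of 0.46 moved to 0.13 with tied ranks and to 0.35 under reciprocal overlap of 50%. Of 47 alternatives listed at the outset, 36 kept the result. No paired analysis was possible because only the ChIP samples have peak lists, and none of the tests compares ChIP with input.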
